A study of Mus musculus with 24 samples.

Results

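The hippocampus of Cdr1as knockout mice was compared with that of wild-type mice in 6 libraries, 3 per genotype, chosen by their tissue and genotype labels from the 24 libraries of the series. The other 18 libraries come from cerebellum, cortex and olfactory bulb of the same 2 genotypes. All animals were C57BL/6. The knockout group lacks the Cdr1as circular RNA locus, no group received a treatment, and the labels state neither age nor sex nor the number of animals behind each library. Libraries of one group therefore count as replicates by their labels only, and the p-values below measure the spread between these libraries, which may be technical.

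Cdr1as is a circular RNA made by neurons. It carries many sites for the microRNA miR-7, which pairs with its targets through its seed, and a site for miR-671, which cuts it. Neurons that have just been active switch on immediate early genes within minutes, and these encode transcription factors such as Fos, Egr1 and Npas4 and synaptic proteins such as Arc. The choroid plexus, an epithelium that hangs in the ventricles and secretes cerebrospinal fluid, lies against the hippocampus and can come away with it on dissection. Its cells make very large amounts of transthyretin (Ttr).

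The mature sequences of the microRNAs that bind Cdr1as are shown because their seeds (capitals, bases 2 to 8) define the target sites counted further on. They were taken from RefSeq with build GRCm38.p6. Mature miR-7a-5p is encoded at chr7:78888295-78888317 and chr13:58392841-58392863, miR-7b-5p at chr17:56243017-56243040 and miR-671-5p at chr5:24592132-24592154.
mmu-miR-7a-5p: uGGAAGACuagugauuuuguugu
mmu-miR-7b-5p: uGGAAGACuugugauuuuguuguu
mmu-miR-671-5p: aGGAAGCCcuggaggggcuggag
Both forms of miR-7 share 1 seed, and the seed of miR-671-5p differs from it.

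Each hippocampus library held 15695851 to 26425832 gene counts, and 21179 to 22114 genes had a count. Dentate granule cell markers had a list mean of 5.11 to 5.63 log2 CPM (CPM, the read count scaled to the library's total) in the 6 libraries against at most 3.24 in any library of another region, and CA3 markers 4.62 to 4.90 against at most 3.98, which matches the tissue label. The other field lists overlapped other regions. CA1 markers were at 5.02 to 5.39 against at most 5.21, CA2 markers at 3.02 to 3.57 against 3.16, and mossy cell markers at 2.02 to 2.42 against 2.60. Wild type 1 stood apart: 37% of its reads fell in no feature against 48.3 to 55.4% in the other 5, 21.4% were not uniquely aligned against 10.5 to 12.9%, and it lay at 46.6 on the first principal component against -19.1 to 6.66. Wild type 1 and wild type 3 also carried choroid plexus RNA, described with its values below. Every pair of the 6 libraries differed beyond sampling noise, with a chi-square per degree of freedom of 11.4 to 101.

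Cdr1as fell in the knockout hippocampus and was the one gene past the threshold. Its level was 416, 356 and 710 CPM in wild type 1, 2 and 3 and 0.641, 0.573 and 0.432 CPM in knockout 1, 2 and 3. The knockout libraries held 10, 13 and 8 reads, so the genotypes lay about 901-fold apart on their means. By edgeR's quasi-likelihood test over 16119 genes, knockout minus wild type came to -9.81 on the log2 scale (SE 0.39, adjusted p = 6.01e-05). With wild type 1 left out it was -9.92 and missed the threshold (adjusted p = 0.127, edgeR).

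A noncoding gene at the Cdr1as locus on the X chromosome differed as well. C230004F18Rik, annotated as a lincRNA and noncoding RNA host, stood at 194, 254 and 180 CPM in knockout 1, 2 and 3 and at 49, 75.6 and 76.2 CPM in wild type 1, 2 and 3. Every knockout library exceeded every wild-type library, at a log2 fold change of 1.65 (SE 0.19, adjusted p = 0.1, edgeR). It passed without wild type 1 (1.47, adjusted p = 0.039), and without wild type 2 it passed too (1.74, adjusted p = 0.0378, edgeR). Whether reads were counted by strand is not given in the sources used here, so reads of C230004F18Rik, Cdr1as and the antisense gene Cdr1 may not be separated. Cdr1 had no read in knockout and 11 reads in all over the wild-type libraries. Zswim8, part of the machinery that degrades miR-7, stood at 189, 178 and 172 CPM in knockout against 122, 192 and 163 in wild type, and the genotypes overlapped.

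**Figure D1:**
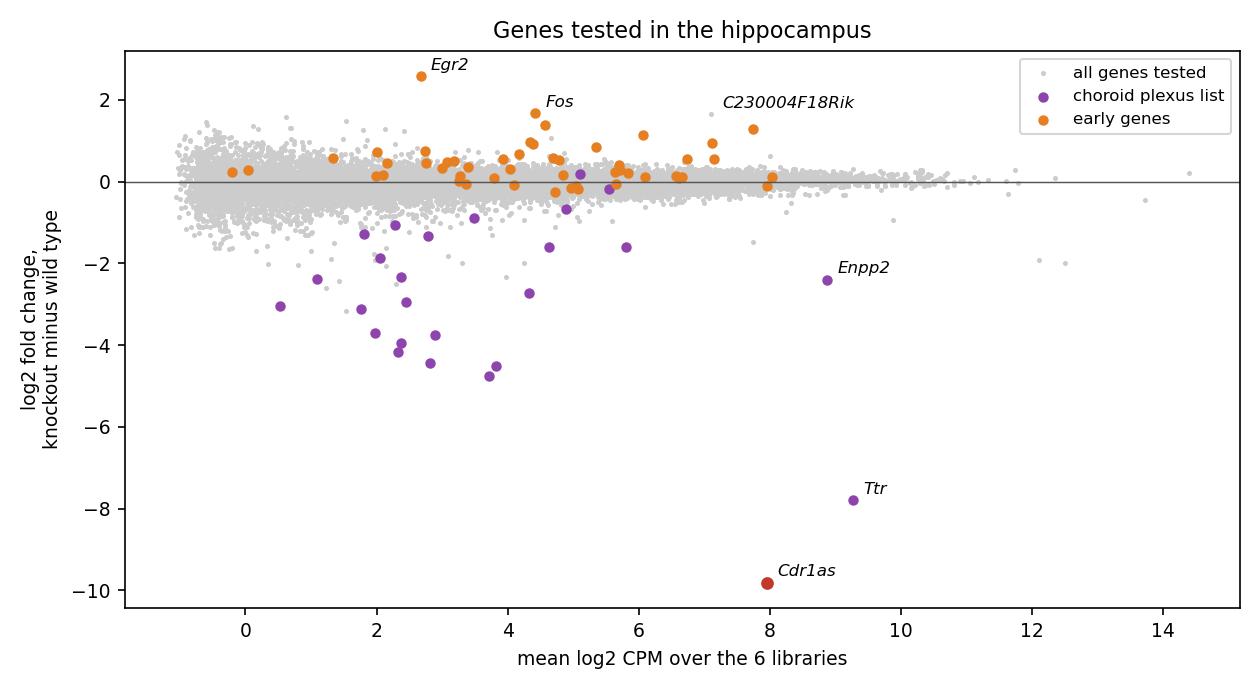
Log2 fold change (knockout minus wild type, y axis) against mean log2 CPM over the 6 libraries (x axis) for the 16119 genes tested. Cdr1as lies at -9.81, the choroid plexus list (purple) reaches -7.78 for Ttr, and most early genes (orange) lie above 0.

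Among the 16119 genes tested, 1 (0.0062%) passed the adjusted threshold, 314 (1.95%) had an unadjusted p under 0.05 and were higher in knockout, and 332 (2.06%) were lower. In 843 genes (5.23%) every knockout library exceeded every wild-type library, and in 671 (4.16%) the reverse held. The median log2 fold change over all genes was -0.02, and 46.2% of genes lay above 0.

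The strongest differences upward, beside C230004F18Rik and the early genes, were in Tnfrsf25, Gm9754 and Tm6sf2. Tnfrsf25, a death-domain receptor of the TNF receptor family, stood at 30.9, 35.8 and 35.9 CPM in knockout against 12, 20.3 and 16.7 in wild type. The genotypes did not overlap, with a log2 fold change of 1.07 (SE 0.18, adjusted p = 0.496, edgeR). It passed without wild type 2 (1.26, adjusted p = 0.0266, edgeR). Gm9754 was at 4.75, 4.89 and 4.75 CPM against 1.05, 2.54 and 2.45 (1.28), and Tm6sf2, a lipid-handling membrane protein, at 3.72, 5.95 and 4.54 against 1.71, 2.85 and 2.5 (1.03). Neither passed the adjusted threshold, and neither overlapped between the genotypes. Sema5a, an axon guidance protein, had the steadiest values of the named genes: 288, 254 and 244 CPM in knockout against 203, 204 and 197 in wild type, a log2 fold change of 0.38 (SE 0.10).

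The strongest differences downward were of mixed kind. Xlr3b, one of several near-identical X-linked copies whose reads may be shared, stood at 0.834, 0.528 and 0.486 CPM in knockout against 6.81, 1.97 and 2.12 in wild type (log2 fold change -2.60, SE 0.55). Wild type 1 was the high library, and without it the genotypes still did not overlap. Fst, the activin inhibitor follistatin, was at 1.09, 1.81 and 2.32 CPM against 3.78, 3.55 and 3.07 (-0.98, SE 0.28), and Ly6g6e at 0.706, 1.15 and 1.46 against 3.35, 2.73 and 1.84 (-1.24, SE 0.34). Both separated the genotypes, and neither was highest in wild type 3. G530011O06Rik (-1.25) and the entry Mir3093 (-0.92) also separated the genotypes and were highest in wild type 1. Another 4 of the leading genes, Wfikkn2 (-2.42), Sulf1 (-2.33), Angptl2 (-1.20) and Vat1l (-1.11), were highest in wild type 3 and next highest in wild type 1, the libraries that carried choroid plexus RNA. With both libraries left out the differences of these 4 genes were -0.75, -0.83, -0.63 and -0.36, in the same order.

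Early activity genes were higher in the knockout hippocampus as a group, though no member passed the adjusted threshold in the edgeR fit of the 6 libraries with genes of low count filtered. With no such filter Egr1 (0.97) and Junb (0.88) passed (adjusted p = 0.0118 for both, edgeR). Of 29 early transcription factors tested, 24 were higher in knockout and 5 lower, 13 had an unadjusted p under 0.05 in the upward direction against 1.95% of all genes, and none in the downward direction. Of 21 early effectors, 18 were higher and 7 had an unadjusted p under 0.05, all upward. The lists were chosen with earlier results of these data known, so these counts are no independent test. The median log2 fold change was 0.29 for the transcription factors and 0.34 for the effectors, against -0.02 over all genes. DESeq2 called 17 genes over the whole table, among them Egr1, Egr2, Egr4, Junb, Nr4a1, Nr4a3 and Arc.

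The zinc-finger factors of the Egr family, which bind GC-rich promoter sites, came first. Egr1 stood at 149, 174 and 224 CPM in knockout 1, 2 and 3 and at 85.1, 89.6 and 107 CPM in wild type 1, 2 and 3. All 3 knockout libraries lay above all 3 wild-type libraries, at a log2 fold change of 0.96 (SE 0.16, adjusted p = 0.471, edgeR). Egr2 was at 4.68, 12.3 and 15.2 CPM against 1.48, 0.951 and 2.88, the widest difference of the group (2.58, SE 0.50). Egr4 was at 20.5, 24.2 and 35.6 CPM against 14.4, 12.8 and 13.9 (0.97, SE 0.20). Knockout 3 was the highest library and knockout 1 the lowest knockout library for each of these 3 genes.

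The AP-1 subunits Fos, Fosb and Junb showed the same order of genotypes. Fos was at 17, 36.9 and 43.6 CPM in knockout against 8.37, 7.42 and 14.6 in wild type, a log2 fold change of 1.68 (SE 0.37). Junb was at 46.7, 47.8 and 62.2 CPM against 28.6, 28.1 and 29.5, a log2 fold change of 0.86 (SE 0.13, adjusted p = 0.411, edgeR). Wild-type Junb varied little, and no wild-type library came near a knockout library. Fosb was at 16.9, 22.9 and 26.1 CPM against 16.1, 12 and 13.4 (0.67, SE 0.18), with knockout 1 just above wild type 1.

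The orphan nuclear receptors and the neuron-specific factor Npas4 followed. Nr4a1 was at 60.9, 89.8 and 125 CPM in knockout against 31.3, 39.5 and 54.9 in wild type (1.14, SE 0.28). Nr4a3 was at 168, 162 and 174 CPM against 120, 116 and 109 (0.55, SE 0.09, adjusted p = 0.471, edgeR), a small difference with little spread in either genotype. Npas4 was at 17.9, 41.7 and 42.7 CPM against 7.2, 19.7 and 12.6 (1.39, SE 0.42). Its genotypes overlapped, because knockout 1 lay below wild type 2. Klf4, a zinc-finger factor, was at 6.74, 10.1 and 7.99 CPM against 5.22, 4.38 and 5.09 (0.76, SE 0.20).

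Among the effectors, Arc, which shapes AMPA receptor trafficking at synapses, stood at 215, 276 and 420 CPM in knockout against 121, 94.9 and 157 in wild type (1.29, SE 0.26). Btg2, an antiproliferative factor, was at 19.4, 31.5 and 30.4 CPM against 11.7, 12.8 and 18.7 (0.92, SE 0.23). Both genes separated the genotypes. Sik1, a salt-inducible kinase, was at 23.5, 33.4 and 36 CPM against 18.5, 19.6 and 24.1 (0.58, SE 0.18), with knockout 1 below wild type 3. Tiparp, an ADP-ribosyltransferase, was at 30.3, 33.8 and 33.2 CPM against 25.8, 15.7 and 25.1 (0.54, SE 0.18), and passed without wild type 1 and wild type 3 (1.05, adjusted p = 0.0342, edgeR, with the lone wild-type library assumed to vary like the knockout group). Errfi1, a feedback inhibitor of the EGF receptor, was at 51.9, 60.3 and 65.8 CPM against 51.6, 37 and 45.7 (0.41, SE 0.14).

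**Figure D2:**
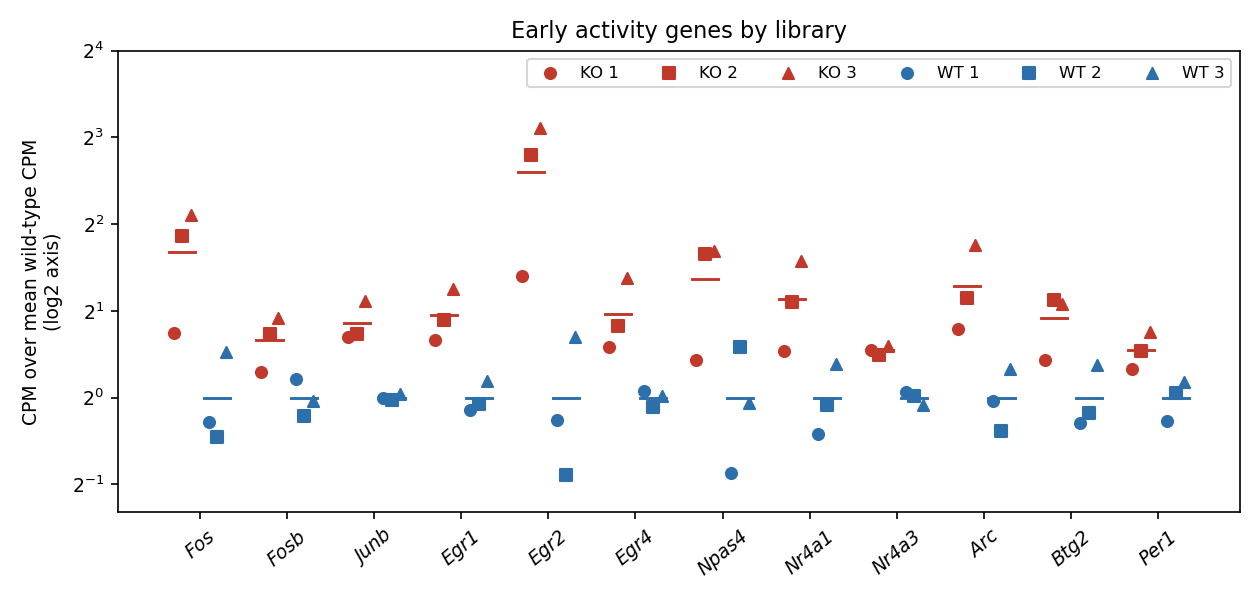
CPM of 12 early genes in each library divided by the gene's mean wild-type CPM (log2 y axis). Red points are knockout, blue points wild type, and bars are genotype means. Knockout means lie above wild-type means for all 12, from 1.46-fold for Nr4a3 and Per1 to 6.08-fold for Egr2.

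Knockout 3 carried the highest value of most early genes. Of the 50 early genes tested, 27 were highest in knockout 3, 6 in knockout 2, 7 in knockout 1 and 10 in a wild-type library, while 11.9% of all genes were highest in knockout 3. Without knockout 3, 21 of 29 early transcription factors were higher, 11 of them with an unadjusted p under 0.05 (1.23% of all genes in that fit), and 18 of 21 effectors were higher. In 16 of the 50 no wild-type library reached a knockout library, against 5.23% of all genes, and 1, Klf6, had the reverse order. Against wild type 2 alone, 42 of 50 early genes were higher, with a median of 0.54. There 10 of 29 transcription factors and 8 of 21 effectors had an unadjusted p under 0.05 upward (3.49% of all genes in that fit). The lone wild-type library was assumed to vary like the knockout group, so these counts hold no wild-type spread. Wild type 2 lacked the high choroid plexus RNA of wild type 1 and wild type 3. The part of that RNA in the early-gene difference was not tested. The labels give no dissection time or handling of the animals.

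Genes that neurons switch on later did not follow. Of 15 delayed activity genes, 4 were higher, and the median was -0.10. At an unadjusted p under 0.05, 1 was lower, beside 2.06% of all genes. It was the sorting receptor Sorcs3 (60.2, 64 and 68.9 CPM in knockout against 68.1, 86.8 and 77.5, log2 fold change -0.27, SE 0.12). Bdnf, the neurotrophin, stood at 38.7, 35 and 43.4 CPM against 51.5, 36.1 and 36.6, and Nptx2, a synaptic pentraxin, at 21.5, 25.9 and 31.8 against 40.1, 23.4 and 30.5. Both overlapped between the genotypes, with wild type 1 the highest library. Pcsk1, a prohormone convertase, was lower in every knockout library (19.5, 31.1 and 31.1 CPM against 35.3, 32.6 and 39.2, -0.39, SE 0.18). Leaving out wild type 1, the delayed list had 8 of 15 members higher and a median of 0.02. The difference between the early and delayed lists was not tested. MAP kinase feedback genes, which dampen the signal upstream of early genes, had 9 of 10 members higher at a median of 0.09, with Dusp5 at 22.6, 28.5 and 38.7 CPM against 23.6, 14.5 and 19.5 (0.63, SE 0.22).

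**Figure D3:**
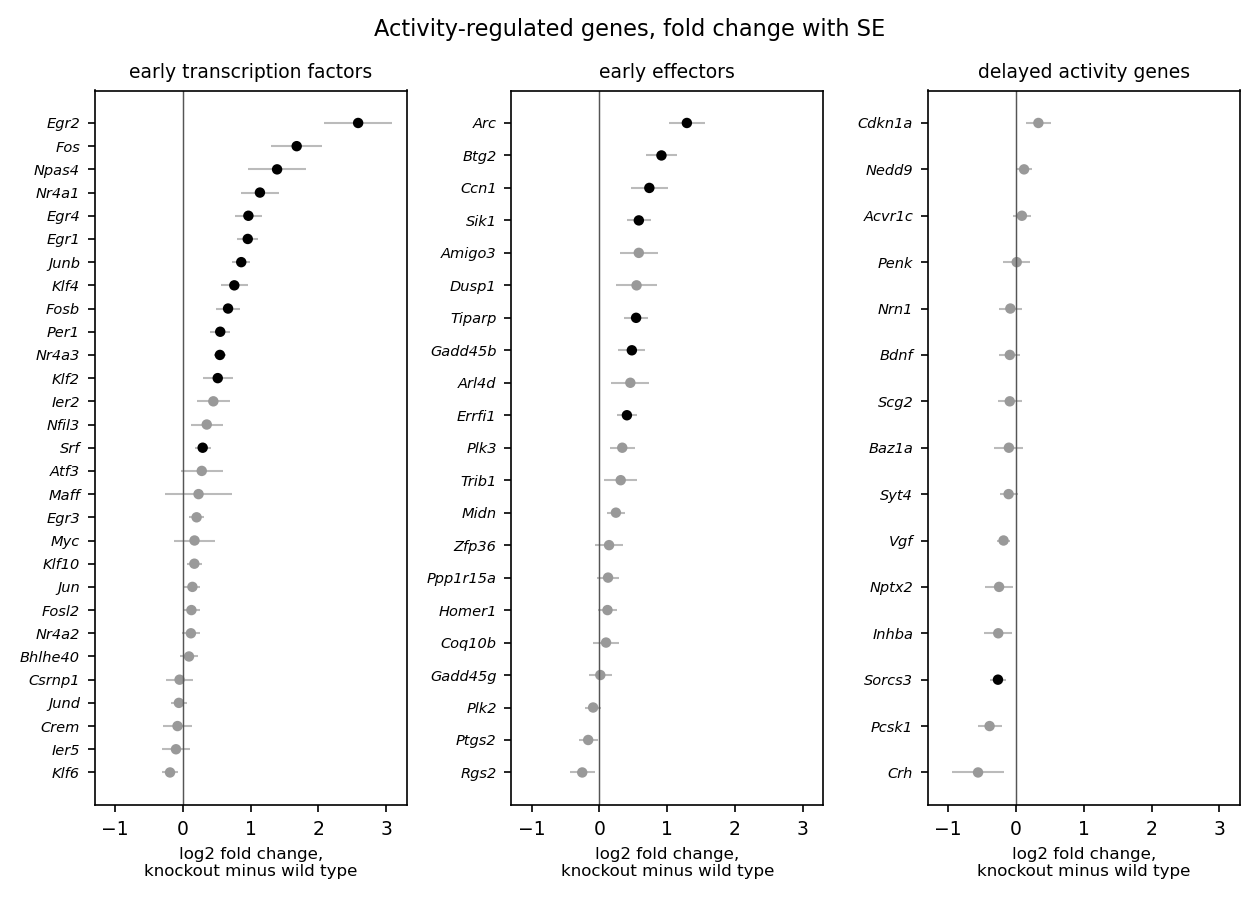
Log2 fold change with its SE (x axis, knockout minus wild type) of each gene on the early transcription factor, early effector and delayed lists, with black points for an unadjusted p under 0.05. Black points lie on the right for 13 of 29 and 7 of 21 early genes and on the left for 1 of 15 delayed genes.

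The proximal promoters of 4 early genes are shown because the group moved together and early genes that respond to cyclic AMP are known to carry sites for the factor CREB near their start. RefSeq held a promoter window of 300 bases for 40 early genes. The windows of Junb (chr8:84978699-84978998, minus strand), Fos (chr12:85473640-85473939, plus), Nr4a1 (chr15:101266596-101266895, plus) and Npas4 (chr19:4989922-4990221, minus) are printed 5′ to 3′ on the gene's strand in build GRCm38.p6, with TGACG, the core of the cyclic AMP response element, or its reverse complement CGTCA in capitals.
Junb promoter: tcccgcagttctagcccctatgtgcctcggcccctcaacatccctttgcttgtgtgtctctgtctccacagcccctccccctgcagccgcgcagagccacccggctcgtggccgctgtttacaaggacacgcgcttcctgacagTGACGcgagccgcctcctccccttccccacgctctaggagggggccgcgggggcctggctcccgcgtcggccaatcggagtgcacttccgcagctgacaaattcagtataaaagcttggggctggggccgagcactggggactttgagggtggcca
Fos promoter: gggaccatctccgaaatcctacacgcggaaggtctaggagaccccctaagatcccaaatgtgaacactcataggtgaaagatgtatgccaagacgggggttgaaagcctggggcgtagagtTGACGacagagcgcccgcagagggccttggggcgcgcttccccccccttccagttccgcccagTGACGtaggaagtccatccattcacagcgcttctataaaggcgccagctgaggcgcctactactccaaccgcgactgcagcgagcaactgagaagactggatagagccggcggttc
Nr4a1 promoter: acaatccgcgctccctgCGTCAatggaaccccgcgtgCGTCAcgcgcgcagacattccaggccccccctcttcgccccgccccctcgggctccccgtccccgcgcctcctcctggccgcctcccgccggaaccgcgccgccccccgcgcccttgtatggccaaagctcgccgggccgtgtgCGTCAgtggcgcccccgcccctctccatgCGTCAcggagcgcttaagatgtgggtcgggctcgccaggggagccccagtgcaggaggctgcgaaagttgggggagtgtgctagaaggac
Npas4 promoter: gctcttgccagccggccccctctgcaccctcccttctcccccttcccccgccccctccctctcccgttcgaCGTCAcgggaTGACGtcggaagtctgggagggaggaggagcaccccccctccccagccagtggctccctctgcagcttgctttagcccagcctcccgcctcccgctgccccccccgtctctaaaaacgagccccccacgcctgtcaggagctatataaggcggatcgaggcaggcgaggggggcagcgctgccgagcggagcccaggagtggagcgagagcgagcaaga
The core was found at 1 place in the Junb window, at 2 places in those of Fos and Npas4, and at 4 places in that of Nr4a1. It was present for 30 of the 40 early genes (75%) and for 23% of all 27025 genes with a window, searched on both strands. The full palindrome TGACGTCA, which contains the core on each strand, was present for 7 of 40 (17.5%) against 2.03% of all genes. The CArG box, a run of A and T bases between CC and GG, was present for 3 of 40 (7.5%) against 1.81%. The EGR site GCGTGGGCG was present for 1 of 40 (2.5%) against 0.707%, and the AP-1 site TGANTCA for 1 of 40 against 8.97%. These matches describe the windows and say nothing of binding in these animals.

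Clock genes differed in a few members. Dbp, a PAR-domain output factor of the clock, stood at 29.2, 28.4 and 27.9 CPM in knockout against 44.4, 56.6 and 40.1 in wild type. The knockout libraries were nearly equal and all lay below wild type, at a log2 fold change of -0.72 (SE 0.14, adjusted p = 0.953, edgeR). Against wild type 2 alone, the highest wild-type library for Dbp, the difference was -0.98. Per1, a clock repressor that is also an early gene, was at 109, 125 and 146 CPM against 71.5, 89.7 and 98.1 (0.55, SE 0.15), and Per2 at 59.1, 60.2 and 66.1 against 54.5, 54.2 and 50.4 (0.22, SE 0.10). Nr1d2, a nuclear receptor that represses clock genes, was at 78.1, 100 and 90.6 against 112, 101 and 116 (-0.29, SE 0.11). Over the 22 clock genes 15 were higher, with a median of 0.09. At an unadjusted p under 0.05, 2 were higher and 2 lower, beside 1.95% and 2.06% of all genes.

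Glucocorticoid-responsive genes had no common direction. Of 21 members 11 were higher, and the median was 0.05. At an unadjusted p under 0.05, 3 were higher and 2 lower, beside 1.95% and 2.06% of all genes. Plin4, a lipid droplet coat protein, was at 8.02, 11.1 and 8.26 CPM in knockout against 10.9, 24.3 and 17.1 in wild type (-0.92, SE 0.27). Its difference rested on wild type 2 and wild type 3, with wild type 1 just below knockout 2. Sult1a1, a sulfotransferase, was at 7.05, 8.1 and 7.4 CPM against 10.7, 11.3 and 9.76 (-0.49, SE 0.15) and separated the genotypes.

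Choroid plexus transcripts were far higher in wild type 1 and wild type 3 than in the other 4 libraries. Ttr stood at 2103 and 1580 CPM in wild type 1 and wild type 3, at 4.44 CPM in wild type 2 and at 7.44, 5.37 and 4.05 CPM in knockout 1, 2 and 3. The summed level of the choroid plexus list was 3630 and 3583 CPM in wild type 1 and wild type 3, against 297 in wild type 2 and 370, 317 and 313 in knockout. Wild type 2, which lacked the excess, lay within the knockout range for Ttr and below it for the sum. In a whole-tissue library, fewer cells of a type and less RNA per cell cannot be told apart.

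The excess covered secreted, transport and signalling genes of the epithelium. Enpp2, which makes lysophosphatidic acid (autotaxin), was at 1006 and 1230 CPM in wild type 1 and wild type 3 against 127 in wild type 2 and 134 to 170 in knockout. Clic6, an intracellular chloride channel protein, was at 27.6 and 45.2 CPM against 1.01 in wild type 2 and 0.702 to 1.1 in knockout. Folr1, a folate receptor, was at 12.4 and 14.8 CPM against 0.127 in wild type 2 and 0.378 to 1.03 in knockout. Kcnj13, a potassium channel, was at 17.2 and 20.8 CPM against 0.571 in wild type 2 and 0.162 to 1.23 in knockout. Kl (Klotho), which neurons also express, was at 88.4 and 136 CPM against 26.5 in wild type 2 and 27.1 to 28.1 in knockout. In each of these 5 genes the 2 high libraries held several times the level of the other 4, and wild type 2 lay within or below the knockout range.

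**Figure D4:**
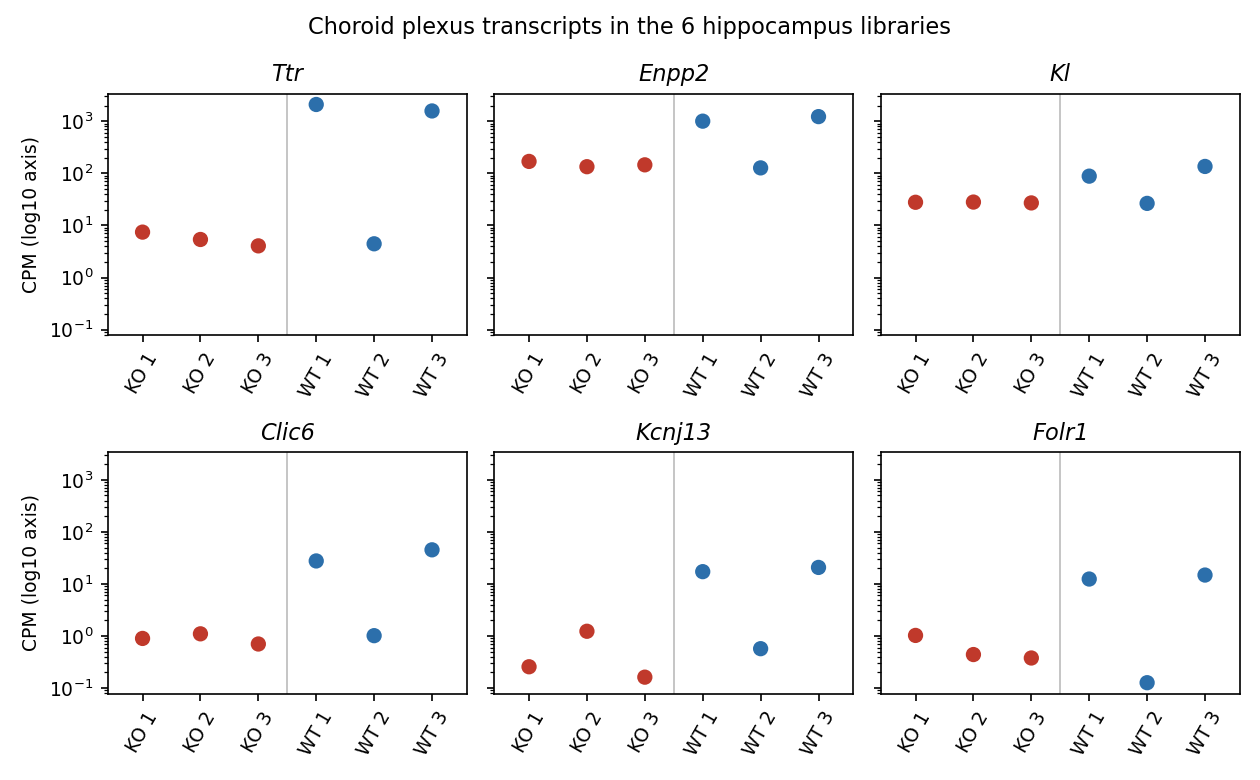
CPM (log10 y axis, shared) of 6 choroid plexus genes in each hippocampus library, knockout in red and wild type in blue. Wild type 1 and wild type 3 stand apart for all 6, with Ttr at 2103 and 1580 CPM against 4.05 to 7.44 CPM in the other 4 libraries.

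In the test of genotype these genes counted as lower in knockout. Of 25 choroid plexus genes tested, 23 had an unadjusted p under 0.05 in the downward direction, against 2.06% of all genes, and the median log2 fold change was -2.39. None separated the genotypes, since wild type 2 lay with the knockout libraries, and none passed the adjusted threshold in the main edgeR fit. DESeq2 called the list members Ttr (-7.77, adjusted p = 0.0023) and Slc4a5 (-5.79, adjusted p = 0.0464) as lower in knockout. With the replicate number as a block, edgeR called Tmem72, also on the list (-6.64, adjusted p = 0.0218). Ttr had a log2 fold change of -7.78 (SE 2.33), Clic6 -4.76 (SE 1.39), Kcnj13 -4.43 (SE 1.41), Folr1 -3.95 (SE 1.37), Enpp2 -2.39 (SE 0.84) and Kl -1.60 (SE 0.54). The list median was 0.17 without wild type 1 and wild type 3, with Ttr at 0.34, and 0.06 with the summed choroid level as a covariate, a fit that takes the list's own level out of it.

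The reach of the excess beyond the list was counted. In 34 of 16119 genes (0.211%), wild type 1 and wild type 3 each held at least 2 times the level of each of the other 4 libraries. Of these, 21 were on the choroid plexus list and none on the meningeal or ependymal lists. The other 13 were Wdr86, Col8a2, Wfikkn2, Sulf1, Cldn1, Abca4, Rbm47, Fap, Slc2a12, Baiap2l1, Tuba1c, Ltc4s and Cdkn1c. With an unadjusted p under 0.05, 33 of the 34 were among the 332 lower genes, or 9.94% of them, a direction that the choice of libraries fixes. In the fit with the choroid level as a covariate 14 genes (0.0846%) followed that level past the adjusted threshold, 13 of them on the list whose sum is the covariate, and Cdr1as was the 1 gene that followed genotype.

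The number of genes called moved with the wild-type libraries in the fit. Without wild type 2, 47 genes passed the adjusted threshold (0.285% of 16491 tested), 45 of them lower in knockout (0.273%) and 2 higher (0.0121%), and 26 of the 47 were on the choroid plexus list. They included Ttr (-8.37, adjusted p = 3.44e-05), Enpp2 (-2.90, adjusted p = 3.44e-05) and Clic6 (-5.31, adjusted p = 1.07e-04, edgeR). The 2 that were higher were Tnfrsf25 and C230004F18Rik. Without wild type 1 and wild type 3 together, 6 genes passed (0.0362% of 16575): Cdr1as, Dbp and Plin4, Tiparp, the iron-binding protein Lcn2 and ENSMUSG00000093098. In that fit wild type 2 was the only wild-type library, so each of these calls rested on it for the wild-type side. Lcn2 was at 5.52 CPM in wild type 2 and at 0.0779 to 0.708 CPM in the other 5 libraries.

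Markers of other tissues at the edge of the hippocampus were high in single libraries of both genotypes. The summed level of meningeal and fibroblast markers was 338 CPM in knockout 2 and 459 in wild type 3, against 172 and 160 in knockout 1 and 3 and 268 and 250 in wild type 1 and 2. Among them Slc13a4, a sulfate transporter of the meninges, stood at 3.85, 14.6 and 4.38 CPM in knockout against 17.4, 8.56 and 31.5 in wild type. The list median was -0.43, and without wild type 3 it was 0.14. Ependymal markers were lowest in knockout 2, knockout 3 and wild type 2, with Foxj1, the master factor of motile cilia, at 10.5, 3.92 and 4.11 CPM in knockout against 6.97, 4.57 and 6.89. Thalamus and habenula markers were highest in knockout 2: Prkcd, a kinase of thalamic neurons, was at 54.9 CPM there and at 18.8 to 27.3 CPM in the other 5 libraries.

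Dentate granule cell markers were mostly higher in knockout, with none past the adjusted threshold. Of 13 markers 12 were higher, 3 with an unadjusted p under 0.05 against 1.95% of all genes, at a median log2 fold change of 0.21. These 3 were Il16, a cytokine precursor (69.7, 58.4 and 63.8 CPM against 48.3, 52.8 and 43.5, 0.41, SE 0.11), Stxbp6, a SNARE-binding protein (119, 87.9 and 87.6 against 73.1, 71 and 78.8, 0.40, SE 0.13), and Plk5, a kinase-like protein (18.2, 11 and 13 against 10, 10.2 and 9.34, 0.51, SE 0.19). All 3 separated the genotypes upward, as 5.23% of all genes did, with knockout 1 highest in each. Prox1, the factor that specifies granule cells, overlapped (230, 195 and 204 CPM against 166, 208 and 160). Without knockout 1 the dentate median was 0.12, with 10 of 13 higher.

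Most CA3 markers were higher in knockout, and the CA1 markers were lower. Of 7 CA3 markers 6 were higher (median 0.26), with Iyd, an iodotyrosine deiodinase, at 7.57, 5.5 and 5.78 CPM against 4.17, 4.38 and 3.3 (0.67, SE 0.21) and the cadherin Cdh24 at 18.8, 18.1 and 18.4 against 13.7, 16.7 and 12.4 (0.37, SE 0.14). Coch, which encodes an extracellular protein, went the other way by the widest margin of the list (3.08, 7.4 and 4.81 CPM against 9.97, 4.95 and 10.9, -0.75, SE 0.36), and its genotypes overlapped. All 6 CA1 markers tested were lower (median -0.19), and 1 had an unadjusted p under 0.05: Ccn3, a matricellular protein, at 70, 94.1 and 87.6 CPM against 135, 119 and 104 (-0.50, SE 0.14). By that measure 2.06% of all genes were lower. All 5 mossy cell markers were higher at a median of 0.22, and 3 of 7 CA2 markers were higher at a median of -0.08. None of these markers passed the adjusted threshold. The share of each field in a dissected piece sets such levels too, and its part was not tested.

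**Figure D5:**
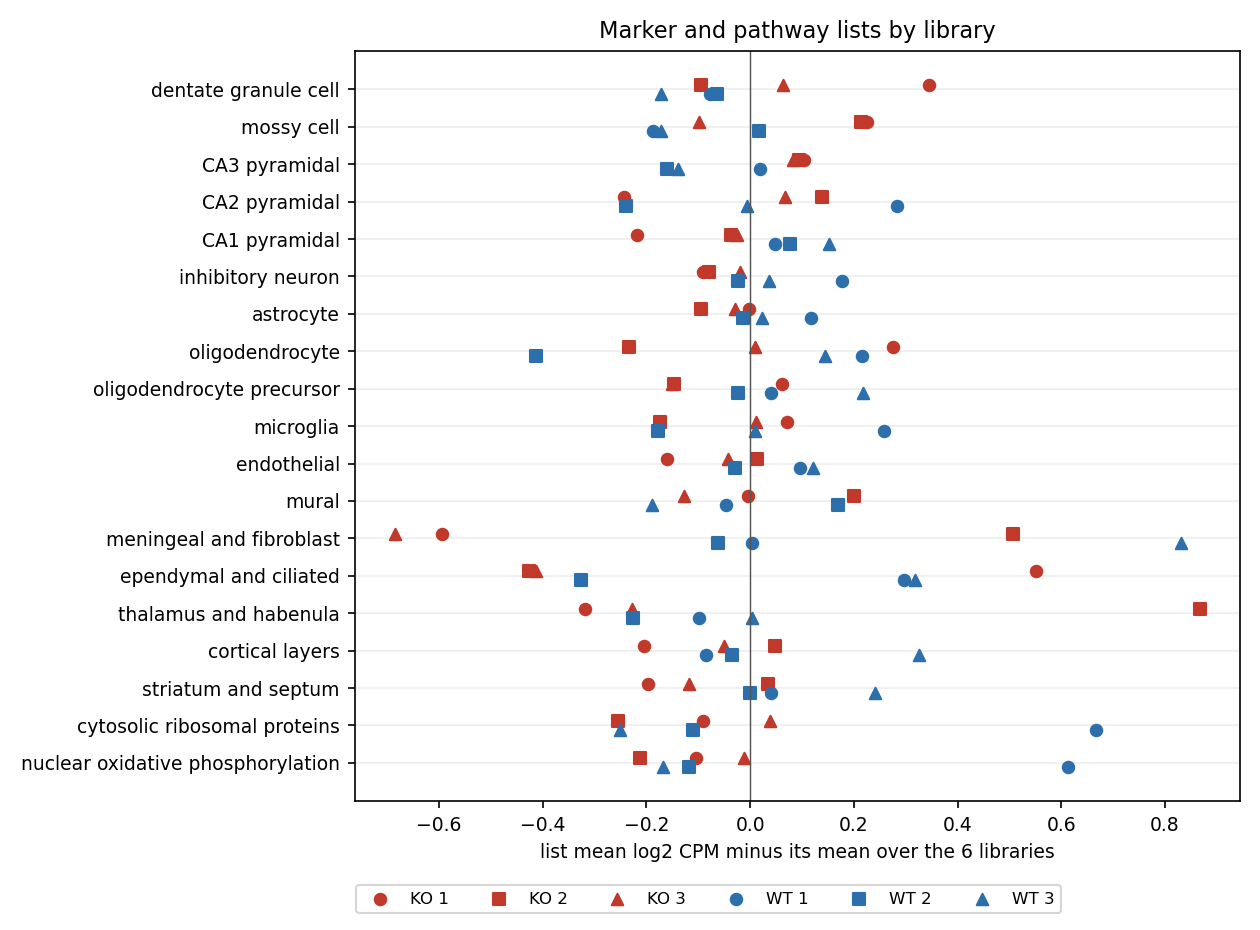
Mean log2 CPM of each marker or pathway list in each library, minus its mean over the 6 libraries (x axis), knockout in red and wild type in blue. Wild type 1 stands apart for ribosomal protein and oxidative phosphorylation genes. Wild type 3 and knockout 2 do so for meningeal genes, and knockout 2 for thalamic genes. The dentate list is highest in knockout 1. By small margins, every knockout library lies above every wild-type library for the CA3 list and below for the CA1 list.

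Glial and vascular markers did not separate the genotypes as lists. Astrocyte, oligodendrocyte and microglia lists had medians of -0.08, -0.01 and -0.07, with no member at an unadjusted p under 0.05 in any of them. Against wild type 2 alone 16 of 16 oligodendrocyte markers were higher (median 0.30), and wild type 2 had the lowest mean log2 CPM of the 6 libraries for that list. The astrocyte filament gene Gfap stood at 252, 220 and 271 CPM in knockout against 257, 242 and 239 in wild type, and the microglial receptor Cx3cr1 at 42.6, 40.5 and 46.1 against 46.5, 39 and 43.4. Of 11 endothelial markers 9 were lower (median -0.15), and Cldn5, a tight junction protein of brain vessels, was at 17.4, 15.6 and 14.5 CPM against 21.8, 19.2 and 18.6 (-0.33, SE 0.13).

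Synaptic receptors and channels, which carry fast signalling between neurons, showed small shifts. Of 17 ionotropic glutamate receptor subunits 12 were higher (median 0.07) and none had an unadjusted p under 0.05. Their median without wild type 1 was -0.01. Of 7 metabotropic receptors 4 were higher (median 0.05), and Grm8, a presynaptic receptor, was lower in every knockout library (8.21, 14 and 13.9 against 14.7, 17 and 21.3, -0.54, SE 0.22). Of 21 GABA and glycine synapse genes 1 had an unadjusted p under 0.05, the receptor subunit Gabra3 (39.6, 58.6 and 52.9 CPM against 60, 62.8 and 66.5, -0.32, SE 0.14). Of 39 potassium channel genes 1 did, Kcnf1 (46.7, 57 and 63.8 against 66.6, 72.6 and 65.2, -0.29, SE 0.13). These single members stand beside 2.06% of all genes that were lower by that measure. None of 23 sodium and calcium channel genes and none of 21 vesicle release genes did, with medians of 0.13 and 0.06. Without wild type 1 these medians were 0.03 and 0.03, and with wild type 3 left out as well they were -0.03 (7 of 23 higher) and -0.04 (9 of 21). Camk2a, the kinase of excitatory synapses, was at 4172, 3237 and 3931 CPM against 2853, 3464 and 2917 (0.30, SE 0.13), with knockout 2 below wild type 2.

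Vesicle, inhibitory and remaining cell type lists added few members. Of 21 glutamate receptor auxiliary and scaffold genes 18 were higher (median 0.08), none with an unadjusted p under 0.05 in edgeR. Their median was 0.02 without wild type 1 and -0.07, with 7 of 21 higher, without wild type 1 and wild type 3. Of 14 inhibitory neuron markers 3 were higher (median -0.08), of 8 excitatory neuron markers 4 (median 0.05), of 9 oligodendrocyte precursor markers 3 (median -0.17), of 9 mural markers 4 (median -0.03) and of 5 blood cell markers none (median -0.19). Zbtb20, a factor of hippocampal pyramidal and granule neurons, was the excitatory marker that separated the genotypes upward (1502, 1451 and 1284 CPM against 1041, 1283 and 1131, 0.29, SE 0.11). Emx1, on the same list, separated them downward (7.055, 5.99 and 6.482 CPM against 7.865, 7.865 and 8.066, -0.29, SE 0.16). Of 19 neurogenesis and cell cycle genes 12 were higher (median 0.07). At an unadjusted p under 0.05, 1 was higher, beside 1.95% of all genes. It was the cyclin Ccnd2 (156, 135 and 153 CPM against 114, 115 and 120, 0.35, SE 0.09). Markers of neighbouring regions had medians of -0.27 for striatum and septum (4 of 11 higher), -0.14 for cortical layers (4 of 12) and 0.22 for thalamus and habenula (6 of 7), and 3 hypothalamus and pituitary genes were tested (1 higher). Stress programmes did not move as lists: 6 of 17 heat shock chaperone genes were higher (median -0.04) and 7 of 18 interferon response genes (median -0.03). The heat shock median was 0.20 without wild type 1 and wild type 3, with 13 of 17 higher.

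Neuropeptide genes were mostly lower. Of 21 members 4 were higher (median -0.29), and 3 were lower at an unadjusted p under 0.05, against 2.06% of all genes. Tac1, the substance P precursor, was at 2.31, 3.57 and 3.13 CPM in knockout against 7.51, 3.87 and 4.81 in wild type (-0.85, SE 0.28). Sst, somatostatin, was at 84.6, 76.7 and 80.9 CPM against 151, 91.8 and 86.4 (-0.44, SE 0.20), and Tac2, the neurokinin B precursor, at 1.6, 0.661 and 0.756 against 2.26, 1.46 and 1.84 (-0.93, SE 0.38). Wild type 1 was the highest library for all 3. Without it none of the 21 was lower at an unadjusted p under 0.05, 2 were higher, and the list median was -0.14 with 8 of 21 higher.

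Ribosomal protein and respiratory chain genes followed wild type 1. None of 75 cytosolic ribosomal protein genes was higher in knockout (median -0.28), and 2 of 80 nuclear oxidative phosphorylation genes were (median -0.28), but no member of either list had an unadjusted p under 0.05 in edgeR, and none was called by DESeq2. Wild type 1 was the highest library for 75 of 75 and for 79 of 80, while it was highest for 28.2% of all genes. Leaving out wild type 1, the medians were 0.10 and 0.05, with 65 of 75 and 55 of 80 members higher. Wild type 1 is also the library with 37% of reads in no feature, and the part of that difference in these medians was not tested.

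Genes with sites for the microRNAs that bind Cdr1as were higher slightly more often than genes without, for miR-7 and miR-671-5p alike. Among 14066 genes tested with an annotated 3′ UTR, 652 held the 8-base miR-7 site GTCTTCCA, and 341 of them (52.3%) were higher in knockout, at a median of 0.01. Of 1513 with the 7-base site GTCTTCC alone, 816 (53.9%) were higher, against 5237 of 11901 (44%) with no site. At an unadjusted p under 0.05, 1.23% with the 8-base site and 2.97% with the 7-base site alone were higher, against 1.66% with no site. The genotypes did not overlap upward in 6.44% and 6.81%, against 4.76% with no site. Genes with the 7-base site of miR-671-5p alone, GGCTTCC, were higher in 916 of 1603 (57.1%), against 5082 of 11770 (43.2%) with no such site. Of 324 genes with 2 or more miR-7 sites 59.9% were higher (median 0.03), and in 10.8% the genotypes did not overlap upward, against 4.76% with no site. Of 385 genes with 2 or more miR-671-5p sites 63.1% were higher (median 0.06), and 12.2% did not overlap upward, against 4.5% with no site. Genes with sites had longer UTRs, with a median of 2600 bases for the 8-base miR-7 site and 3644 bases for 2 or more miR-7 sites against 1229 bases for genes with no miR-7 site, and the part of UTR length was not tested. Of 18 described miR-7 targets 13 were higher (median 0.10), 3 of them with an unadjusted p under 0.05, against 1.95% of all genes: Fos, Klf4 and Nr4a3, which are also on the early list. Irs2, an insulin receptor substrate and described miR-7 target, was at 89.8, 90 and 106 CPM against 76.4, 85.6 and 80.9 (0.24, SE 0.11) and separated the genotypes.

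The difference in the hippocampus was tested against the mean difference of the other 3 regions in 1 fit of all 24 libraries. Of 17600 genes, 1 (0.00568%) passed, and 221 (1.26%) had an unadjusted p under 0.05. It was Sulf1, an extracellular heparan sulfate sulfatase, with a difference of -2.36 (SE 0.37, adjusted p = 0.0306, edgeR). Sulf1 stood at 4.23, 6.83 and 4.32 CPM in knockout hippocampus and at 25, 9.26 and 43.7 CPM in wild type 1, 2 and 3, while the mean log2 fold change of the other regions was 0.02. The 2 highest libraries were those with choroid plexus RNA, and without them the difference was -0.85 (adjusted p = 1, edgeR). It also missed the threshold without wild type 1 (-2.36, adjusted p = 0.103), without wild type 3 (-1.73, adjusted p = 0.109), without knockout 1 (-2.22, adjusted p = 0.406) and without knockout 3 (-2.21, adjusted p = 0.212, edgeR).

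The early genes were set beside the other regions in the same fit. Nr4a3 had a log2 fold change of 0.55 in the hippocampus and 1.80 over the other regions, where wild-type levels were lower: 21.8 ± 5.06 CPM in cerebellum, 52.7 ± 16.7 in cortex and 24.5 ± 12.2 in olfactory bulb against 119 in hippocampus (SD, n = 3). The difference of -1.26 did not pass (adjusted p = 1, edgeR). Egr1, at 0.96 against 0.76, and Arc, at 1.29 against 1.01, differed between hippocampus and the other regions by 0.19 (SE 0.30) and 0.27 (SE 0.38). The other regions were not alike. In cerebellum mean Egr1 was at 40.9 CPM in knockout against 40.8 in wild type, and Arc at 20.6 against 22.1. In cortex they were at 518 against 253 and 636 against 179. In olfactory bulb they were at 292 against 124 and 271 against 108. Fosb, at 0.67 against 1.65, differed by -0.99 (SE 0.48), which did not pass the adjusted threshold. Wild-type Cdr1as was 510 CPM on average in hippocampus in that fit, against 4134 ± 236 in cerebellum, 985 ± 247 in cortex and 874 ± 82.3 in olfactory bulb (SD, n = 3). Knockout Cdr1as averaged 0.564 CPM in hippocampus, against 0.234 in cerebellum, 0.355 in cortex and 0.307 in olfactory bulb. In hippocampus these were 10, 13 and 8 reads. With so few reads, a difference in fold change between regions cannot be read as a weaker loss of Cdr1as. The log2 fold change of Cdr1as in hippocampus lay 2.34 above that of the other regions (SE 0.50, adjusted p = 0.852, edgeR), a difference that passed without wild type 3 (2.73, adjusted p = 0.013) and without wild type 1 and wild type 3 (2.83, adjusted p = 0.0253, edgeR).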

How the data were processed

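Total RNA of 4 brain regions was sequenced after ribosomal RNA depletion by RNase H with a stranded kit, per the labels' protocols. The authors deposited 1 table of read counts per library, not normalized, with 37621 gene entries and 5 summary rows, which entered neither library sizes nor tests (reads in no feature came to 37 to 55.4% in hippocampus). The submitters' processing notes name bcl2fastq 2.17.1.14, STAR 2.5.1b, HTSeq 0.6.1p1 and the build mm9, with no settings, and the strand option is not given in the sources used here. Of 37620 Ensembl identifiers, 32897 were named from GENCODE M21, used for names and 3′ UTRs only; promoters and microRNAs came from RefSeq.

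The 6 hippocampus libraries (15.7 to 26.4 M gene counts; 5.18 to 30.5 M over all 24) were fitted with edgeR 4.0.16 in R 4.3.3 (filterByExpr with a minimum count of 10, TMM scaling, robust quasi-likelihood F-test, Benjamini-Hochberg adjustment over all genes tested, threshold 0.05). The contrast of the hippocampus with the mean of the other 3 regions used 1 fit of all 24 libraries. Log2 fold changes are knockout minus wild type, and CPM uses TMM-scaled library sizes. Named genes were those past the threshold, the 10 largest differences each way among genes with an unadjusted p under 0.05, log2 CPM averaging 1 or more and genotypes apart, up to 4 members of each list by p, genes set by name, and the 8 smallest p-values each way without wild type 2 and of the contrast between regions. Other list members named with their values, such as Prox1, Gfap and Zswim8, illustrate a list. The members and the 42 gene lists (626 entries, 1 unmatched) were chosen with earlier results of these data known. The 2-fold rule for carry-over and the fit between regions without wild type 1 and wild type 3 were chosen after seeing the data. Alternatives were other scalings, filters and tests (DESeq2 1.42.0, limma 3.58.1 voom), left-out libraries, a replicate block and covariates. The scripts were tested on simulated data.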

Additional observations from a re-analysis of the deposited data

Results flagged for a closer look

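Sulf1, an extracellular sulfatase of heparan sulfate, was singled out because its genotype difference in the hippocampus differed from the mean difference of the other 3 regions in a test of that difference itself, by -2.36 on the log2 scale (adjusted p = 0.0306, edgeR). Wild type 1 and wild type 3, the libraries with choroid plexus RNA, held 25 and 43.7 CPM, against 9.26 CPM in wild type 2, and Sulf1 belongs to the 34 genes with that pattern. Without those 2 libraries the difference was -0.85.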

How the results depend on the processing

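The count of 1 gene past the threshold in hippocampus was also 1 with RLE or upper-quartile scaling, the choroid plexus covariate and the marker genes removed. It was 17 with DESeq2, 3 with limma voom and quality weights, 5 with no filter on low counts, 0 with at least 1 CPM in all 6 libraries (a filter that removes Cdr1as), 2 in 1 fit of all 24 libraries, 2 with a covariate for reads outside features, 6 without wild type 1 and wild type 3 together, and 1 to 47 when 1 library was left out. With the replicate number as a block 7 genes passed (Cdr1as, Arc, Nr4a1, Egr1, Npas4, Tmem72 and C230004F18Rik), and 0 in the contrast between regions. The numbers did not pair the libraries: same-numbered deviations correlated at -0.0033, 0.024 and -0.22, and knockout 2 correlated best with wild type 3 (0.32). The contrast between regions gave 1 gene in the main setting, 0 with no filter and 0 to 3 when 1 library was left out. With wild type 1 and wild type 3 left out the log2 fold changes of Ttr (0.34), Kl (0.068), Folr1 (2.18), Kcnj13 (0.041) and Enpp2 (0.24) turned positive, and with the choroid covariate those of Folr1 (2.003) and Enpp2 (0.093) did. Beyond these counts, 1433 values for single genes and lists kept their direction and side of the threshold or moved within their spread, 48 moved, 41 came to pass it and 8 ceased to. The cause of these shifts was not tested. Depth limits Cdr1, with 11 wild-type reads in all, to a description.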

Other observations

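Several abundant transcripts varied by library within the genotypes. Rn7sk, the small nuclear RNA that holds the elongation factor P-TEFb, stood at 9457, 9684 and 14940 CPM in knockout and at 22810, 11930 and 11960 CPM in wild type, highest in wild type 1. Ptgds, a prostaglandin synthase of the meninges and choroid plexus, was at 131, 378 and 174 CPM in knockout and 338, 247 and 552 CPM in wild type, highest in knockout 2 and wild type 3, the libraries with the highest meningeal sums. Gh, growth hormone, was at 0.513, 1.1 and 11.4 CPM in knockout and 2.96, 8.63 and 4.15 CPM in wild type. Gm10800 was at 53.9 CPM in knockout 1 and at most 0.127 CPM in the other 5 libraries.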
